A study of Caenorhabditis elegans with 2 samples.

Results

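The right arm of chromosome V of the nematode Caenorhabditis elegans was taken as the last 30% of the 1 kb bins of that chromosome, chosen by position alone, and held 6276 of the 100257 bins of the table. It ran from position 14644001 to 20920000 in the numbering of the deposited table. The last bin outside the arm held 2.91 ppm in N2 and 5.29 ppm in the coIP, and the first bin inside it held 4.28 and 5.25 ppm. The edge therefore did not fall on a step in the signal.

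The study addressed which parts of the genome match the small RNAs carried by HRDE-1, and it held 2 small RNA libraries from young adult hermaphrodites. One came from the wild-type strain N2. The other, labelled HRDE-1-coIP, came from RNA recovered with HRDE-1 that carried FLAG and StrepII tags, using anti-FLAG beads on the lysate of a pool of ground whole worms. The labels print the pull-down protocol for both libraries, and they do not say whether the N2 RNA was total small RNA or a mock precipitation without the tag. They give no promoter, insertion site or clone number for the tagged HRDE-1. Cloning in both was by a method that accepts RNA with or without a 5′ monophosphate. There was 1 library per group, so no difference below has a replicate check and none was tested. Because whole worms were ground, fewer germ cells and less small RNA per germ cell cannot be told apart.

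HRDE-1 is an Argonaute protein of the germline nucleus. It binds small interfering RNAs that RNA-dependent RNA polymerases copy from target transcripts, and it directs transcriptional silencing and histone H3 lysine 9 methylation at the matching loci, in part across generations. The arms of worm chromosomes are rich in repeats and in young, fast-changing gene families, and the right arm of V carries the tandem array of 5S ribosomal RNA and SL1 spliced leader genes besides many chemoreceptor, F-box and nuclear hormone receptor genes. Transfer RNA, 5S rRNA and spliced leader RNA are abundant structural RNAs of all cells, and their fragments appear in many small RNA libraries.

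Values are given in ppm, the deposited coverage value of a bin divided by the sum of its library and multiplied by 1000000. The smallest deposited value, 0.1, stood in every empty bin and equals 0.195 ppm in N2 and 0.121 ppm in the coIP. A read was inferred to be worth 0.454 ppm in N2 and 0.204 ppm in the coIP, which put the depth over all bins at 2161930 reads for N2 and 4832802 for the coIP. A level of 95% was used for every interval. Behind a fold or ratio, the inferred reads were treated as counts, so its interval covers counting error alone. Behind a median, each bin was treated as an independent value, although bins adjoin and come from 1 library per group. Such an interval covers only the spread among bins. A bin counted as measured from a mean of 0.351 ppm over the libraries upward, and as higher or lower when the coIP differed from N2 by at least 4-fold after 0.121 ppm was added to each. Folds and ratios of runs, genes, tiles and named bins instead use the inferred reads above the floor over the depth of each library. They can therefore differ from the ratio of the printed ppm, mainly where N2 is near the floor.

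Of the 6276 bins, 3230 were measured, and more of them were higher than lower in the coIP. The 701 higher bins were 21.7% of the measured bins, against 19.4% over the whole table, and the 291 lower bins were 9.01%, against 9.04%. The median log2 ratio of coIP over N2 was 1.03 in the arm (0.96 to 1.05, with bins taken as independent), and 0.73 over all measured bins. Before rounding, the upper end was 1.0469. The bin of srh-186, empty in N2 and at 0.532 ppm in the coIP, had exactly this value. For such a bin the value depends on the N2 floor and the added 0.121 ppm, so the narrow interval is no measure of precision. Among the 12 chromosome arms the right arm of V ranked 7th for the share of higher bins, in a range of 13.0% to 31.5%. It ranked 3rd for the share of lower bins, in a range of 4.83% to 9.67%. The sign of the split depended on how the libraries were scaled. Higher bins were 70.7% of the called bins when each library was divided by its sum, 41.5% with a median-of-ratios scaling, and 43.5% with sums that left out the 10 highest bins of either library. These scalings moved the median of the whole table from 0.73 to 0 and to 0.13 on the log2 scale, and a rescaling moves the arm and the table together. The median of the arm lay 0.30 above that of the table as first scaled, 0.07 above it with a pseudocount 10 times larger, and 0.03 below it with no minimum, at −0.15 against −0.12.

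In better covered bins the arm stood above the table in both directions, while over all measured bins it did so only for higher bins. The lower bins among the better covered ones include 16 of the block of repeated genes described below. At 10 times the minimum, 968 bins remained, of which 367 or 37.9% were higher, against 32.7% in the table, and 142 or 14.7% were lower, against 11.8%. Many calls rested on few reads, since 434 of the 701 higher bins had under 3 N2 reads and 218 of them had none. In N2, 49.3% of the bins of the arm were empty, and in the coIP 23.2%, in the deeper library. The authors' deposited table gives a p-value for each bin. At or under 0.05 it lists 778 bins of the arm with more signal in the coIP, 12.4% of its bins against 12.6% of the table, and 253 with less, 4.03% against 4.82%.

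Signal in the arm was concentrated in few places, and in different degree in the libraries. The 10 strongest bins held 54.0% of the N2 signal of the arm but 23.7% of the coIP signal, and 50% of it was reached with 10 bins for N2 and 53 for the coIP. Without the block of repeated genes described next, these numbers were 43 and 49 bins, so the libraries differed little in this outside the block.

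**Figure D1:**
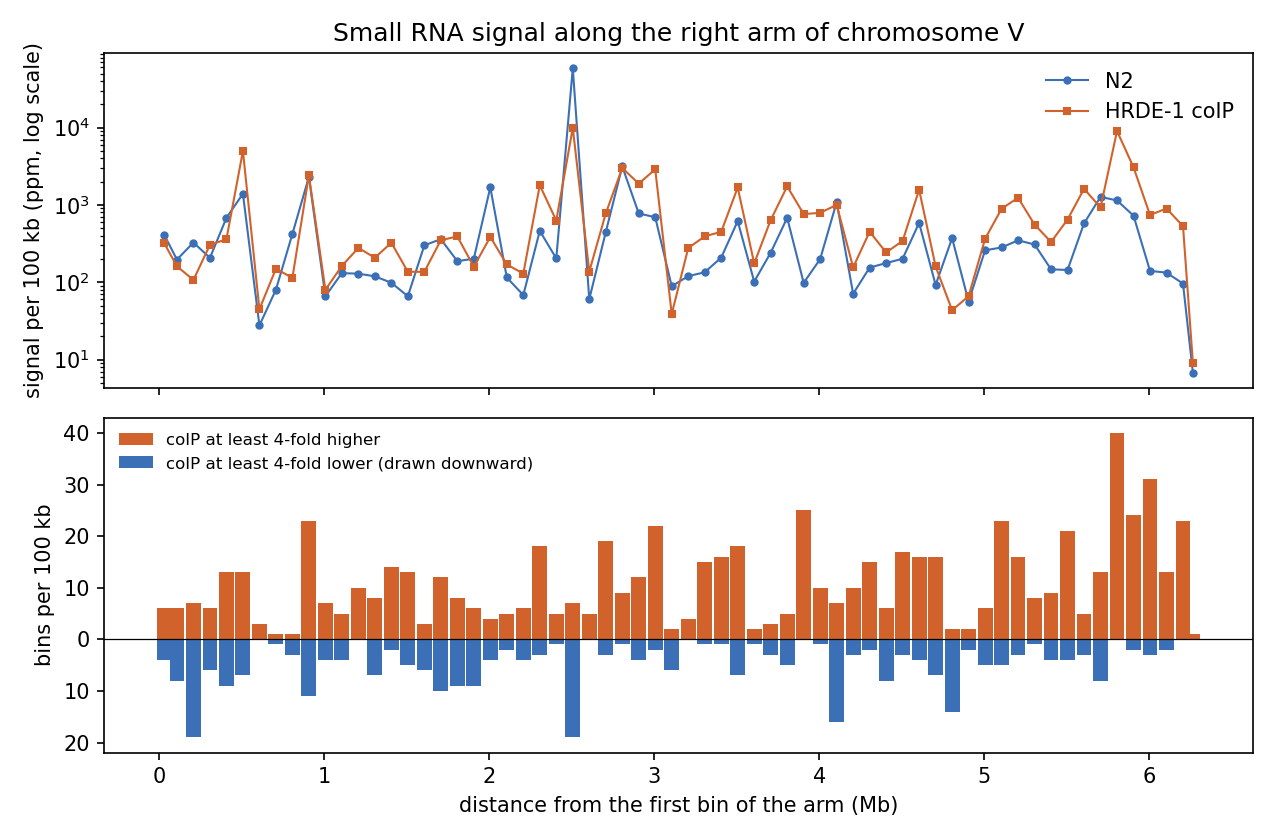
The upper panel plots the summed signal per 100 kb (ppm, log scale) of N2 (circles) and the HRDE-1 coIP (squares) against the distance from the first bin of the arm, and the lower panel counts the bins at least 4-fold higher (upward) and lower (downward). N2 peaks at 58660 ppm in the window of the repeated block, where the coIP has 9949 ppm, and the most higher bins, 40, lie in the window from 20400001 to 20500000.

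The block, 18 adjoining bins from 17115001 to 17133000, held most of the N2 signal of the arm and was lower in the coIP. It held 56316 ppm in N2 and 2181 ppm in the coIP, which was 26.0-fold lower (25.5 to 26.6). This was 67.3% of all N2 signal of the arm and 3.40% of its coIP signal. With it the arm took 8.54% of the N2 library and 6.48% of the coIP, and without it 2.96% and 6.28%, so the order of the libraries turned on these 18 bins. For comparison, the left arm of V, of equal length, took 1.60% and 4.47%.

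The annotation, whose match to the positions of the table is described with the processing, places 14 genes for 5S rRNA (rrn-4) and 12 for the SL1 spliced leader (sls-1) in the block. The 15 bins that hold the midpoint of such a gene carried 1601 to 5776 ppm in N2 and 22.5 to 234 ppm in the coIP. The 3 bins that hold none carried 1.13, 119 and 10.7 ppm in N2. The bin at 17116001, at 1.13 ppm in N2 and 1.45 ppm in the coIP, holds the end of a 5S gene without its midpoint, so that 16 bins touch such a gene. The midpoint was taken after the values were seen. A high N2 level at structural RNA genes was used to match the positions, so it is no finding here. The difference between the libraries is described, but it holds the same N2 values and so is not free of that choice. This applies to the transfer RNA bins below as well.

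Within the block the values repeated. In 6 bins, 17123001 to 17126000 and 17129001 to 17132000, N2 stood between 4267.9 and 4268.3 ppm and the coIP between 151.7 and 154.1 ppm. How the authors placed reads that match several sites is not given in the sources used here, so these bins cannot be taken as separate measurements. Each of them still enters the counts of bins given here, and its reads enter the intervals. The bin at 17127001 went the other way from its neighbours, with 10.7 ppm in N2 and 47.6 ppm in the coIP. It holds no 5S or spliced leader gene.

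A lone 5S gene outside the array gave the same direction with a smaller difference. The bin of rrn-4.15 at 17428001 held 2724 ppm in N2 and 270.0 ppm in the coIP, 10.2-fold lower (9.58 to 10.8). Its reads cannot be told apart from those of the array if the sequences are alike.

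Right after the block the libraries changed order. The 13 bins from 17133001 to 17146000 were set apart after their values were seen. They run on for as long as the coIP held at least 35.1 ppm, a cut on that library alone. They summed to 2063 ppm in N2 and 7038 ppm in the coIP, 3.39-fold higher (3.29 to 3.50). The coIP was the higher library in each of them, with 70.4 to 961 ppm against 14.3 to 275 ppm in N2. The cut favours bins of this kind, so the order and the ratio are description only. The annotation gives the stretch no protein-coding gene, only the non-coding RNA Y102A5D.22 and the microRNA gene mir-257, and the authors' marks leave it out. The bin of mir-257 held 197 ppm in N2 and 642 ppm in the coIP, which lies within the range of its neighbours and cannot be assigned to the microRNA. With the median-of-ratios scaling, which divides every ratio by 1.76, the value was 1.93.

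**Figure D2:**
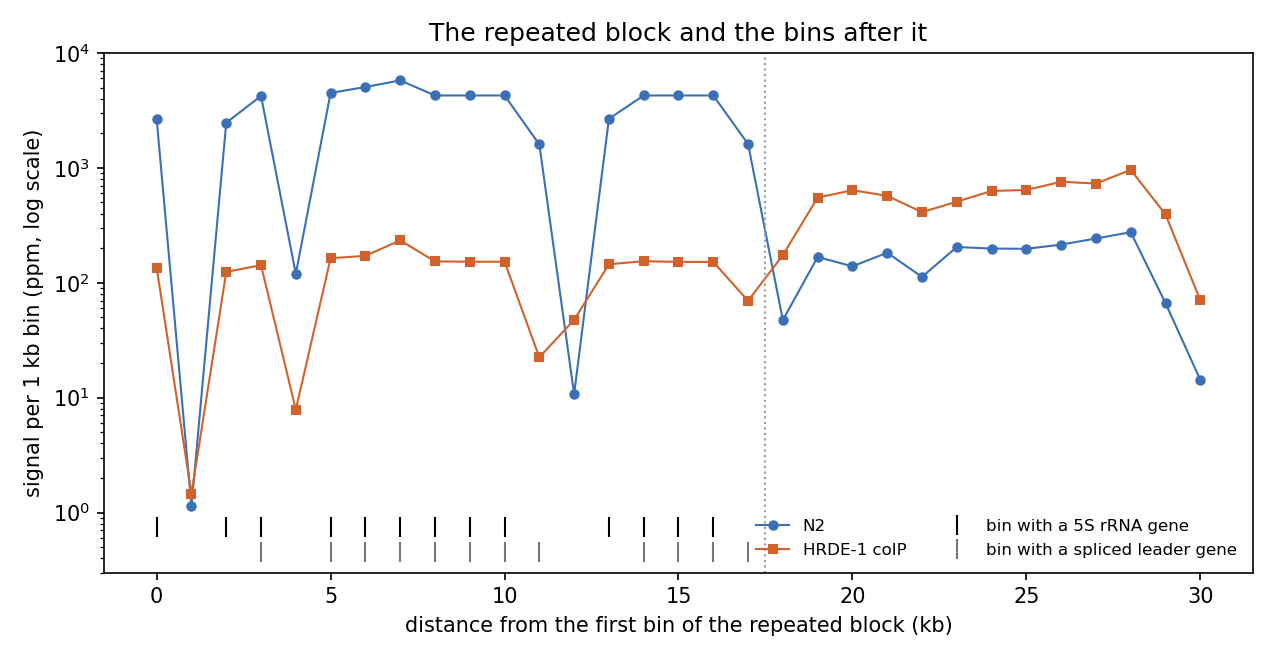
Signal per 1 kb bin (ppm, log scale) in N2 (circles) and the HRDE-1 coIP (squares) against the distance from the first bin of the repeated block; ticks mark bins that hold the midpoint of a 5S rRNA or spliced leader gene, and the dotted line marks the end of the block. N2 exceeds the coIP in 16 of the 18 bins of the block, and the coIP exceeds N2 in the 13 bins after it, a stretch bounded by its coIP level.

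Transfer RNA genes, which supply the adaptors of translation, were also lower in the coIP along the arm. The stretch with gene names, 14644001 to 19143000, holds 34 of them in 30 bins. All 30 bins were measured, 23 were lower in the coIP and none was higher, with a median log2 ratio of −3.89 (−4.44 to −2.91). In that stretch 19.7% of measured bins were higher and 10.3% lower. Of its 122 bins with at least 35.1 ppm in N2, 53 were lower. N2 is the divisor of the ratio, so a cut on N2 alone favours lower bins by itself, and this share is no finding. A structural RNA or microRNA gene lies in 33 of these 122 bins and in 30 of the 53. The strongest transfer RNA bin was that of C06B8.t3 at 15505001, with 1081 ppm in N2 and 13.7 ppm in the coIP, 79.9-fold lower (62.4 to 103). The 3 bins of W06G6.t1, W06G6.t3 and W06G6.t2, 16640001 to 16649000, held 538, 538 and 537 ppm in N2 and 13.3, 13.3 and 13.1 ppm in the coIP. As in the 5S array, near-equal values cannot be taken as separate measurements. The counts of bins and the median interval above still include each of these bins.

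A few transfer RNA bins did not follow. The bin shared by T23F1.t1 and T23F1.t2 at 15465001 held 56.1 ppm in N2 and 54.4 ppm in the coIP. The bin of Y70C5A.t1 at 16622001 held 34.9 ppm in N2 and 53.8 ppm in the coIP. A bin of 1 kb also holds sequence beside these short genes, and the table does not say which part the reads match.

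The other classes of structural RNA were few and mixed. Of 4 annotated small nuclear RNA genes outside the array, the bin of F11A5.14 alone was measured, at 82.9 ppm in N2 and 5.29 ppm in the coIP. Of 6 small nucleolar RNA genes, which guide RNA modification, 4 had a measured bin, and 1 of these was lower. The bin of T06C12.16 held 81.9 ppm in N2 and 138 ppm in the coIP, and that of W08G11.6 held 43.7 and 8.34 ppm. The gene str-56 covers the first of these bins too. Of 7 microRNA genes 6 had a measured bin, 1 of them higher and 2 lower, with a median log2 ratio of 0.69 that was −0.04 and 0.08 under the other scalings. The bin of mir-262 was lower, with 58.4 ppm in N2 and 3.57 ppm in the coIP, and that of mir-5552 was higher, with 0 N2 reads and 9.59 coIP reads.

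**Figure D3:**
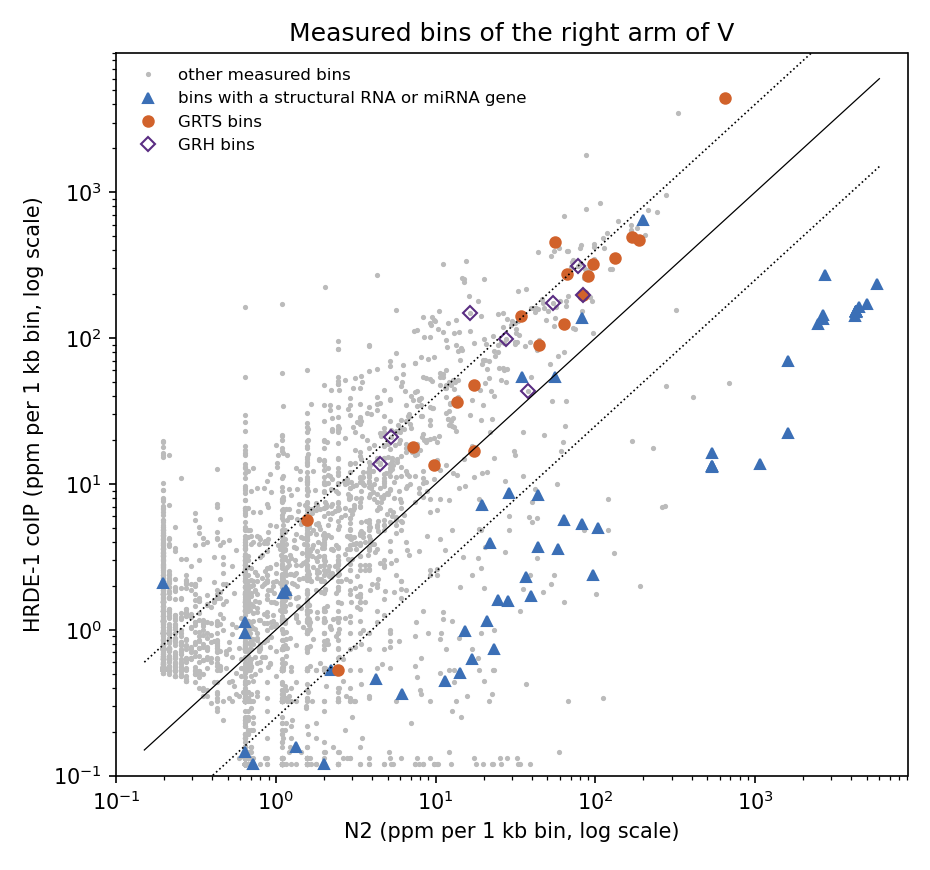
Each point is a measured bin of the arm, with its N2 level on the x axis and its HRDE-1 coIP level on the y axis (ppm, log scales); the solid line marks equal levels and the dotted lines 4-fold differences. Bins with structural RNA or microRNA genes (triangles) reach 5776 ppm in N2 and mostly lie under the lower dotted line. Of the 26 marked bins (circles and diamonds) 24 lie above the solid line, as do 2200 of the 3204 unmarked measured bins.

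The higher bins fell into 330 runs when gaps of up to 1 bin were bridged, 185 of them single bins. The 10 runs with the most coIP signal summed to 2681 ppm in N2 and 21013 ppm in the coIP, and all higher runs to 37313 ppm in the coIP. The strongest, 20465001 to 20470000, held 776 ppm in N2 and 6717 ppm in the coIP, 8.60-fold higher (8.19 to 9.03). Its first bin alone held 645 and 4457 ppm, the highest coIP value of the arm. It lies where positions could not be matched, so no gene is named.

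The next run, 15164001 to 15170000, held 452 ppm in N2 and 4665 ppm in the coIP, 10.3-fold higher (9.64 to 10.95). The annotation places the long non-coding RNA gene T09F5.12 and the chemoreceptor gene srz-11 there, and the peak of 3508 ppm in the coIP lay in a bin of T09F5.12 alone. The run 17422001 to 17428000 held 382 and 2690 ppm, 7.01-fold higher (6.53 to 7.52), and no annotated gene. It ended at the bin of rrn-4.15, which was lower. The stretch after the array, at 3.39-fold as a whole, stayed under the 4-fold of the call.

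The F-box gene fbxa-192 covers the run 17645001 to 17650000, with 260 ppm in N2 and 1218 ppm in the coIP, 4.66-fold higher (4.27 to 5.08). F-box proteins are substrate receptors of ubiquitin ligases. The run 18686001 to 18690000 covers ubc-19, named as a ubiquitin-conjugating enzyme, with Y69H2.17, Y69H2.20 and Y69H2.7, at 134 and 729 ppm, 5.42-fold higher (4.82 to 6.13). The run 17154001 to 17158000, over F40D4.17, F40D4.13 and the piRNA gene 21ur-12557, held 165 and 682 ppm and stood at 4.13-fold (3.71 to 4.62). The other 4 of the 10 lay beyond the named stretch, at 20511001 to 20521000 (7.87-fold), 20419001 to 20436000 (14.2-fold), 19863001 to 19869000 (4.67-fold) and 20439001 to 20458000 (19.5-fold). With the median-of-ratios scaling the 10 ratios were 2.35 to 11.1, and 5 of them remained at or above 4-fold.

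Some weaker runs had almost no N2 signal. At 20717001 to 20720000 the coIP held 185 ppm against 2.15 N2 reads, a ratio of 188 with an interval of 55.9 to 1674. At 19242001 to 19245000 it held 429 ppm against 10.0 N2 reads, a ratio of 93.6 (50.9 to 196). The run 20811001 to 20815000 had 343 ppm and a ratio of 68.3 (38.0 to 137), and the run 20542001 to 20545000 had 99.2 ppm and a ratio of 43.3 (18.4 to 134). At 18842001 to 18846000, over the nuclear hormone receptor gene nhr-65, N2 had no read and the coIP 35.6 ppm, a ratio of 25.6 if 3 reads over the run are allowed for N2, and at least 20.6-fold higher by the lower end of the interval used for the other runs. The wide intervals show how far the N2 depth limits such ratios.

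The 168 lower runs were led by the block, the bin of rrn-4.15 and that of C06B8.t3. The bin at 15190001 came next, with 688 ppm in N2 and 49.2 ppm in the coIP, 14.1-fold lower (12.3 to 16.3). It holds part of the cyclophilin gene cyn-3 and of the small nucleolar RNA gene Y75B12B.12. The last of the 5, 20375001 to 20378000, held 648 and 57.7 ppm, 11.4-fold lower (10.0 to 13.0), and has no name here.

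Strong bins with near-equal signal in both libraries also occurred. The bin of the pseudogene Y17D7C.3 at 18720001 held 97.2 ppm in N2 and 109 ppm in the coIP, a ratio of 1.12 with an interval of 0.95 to 1.31. The bins at 20502001, 19968001, 15873001 and 19270001 had ratios of 1.86, 1.86, 1.67 and 1.62. With the median-of-ratios scaling the bins at 15873001, 18720001 and 19270001 passed to the other side of 1, at 0.951, 0.635 and 0.924.

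The authors mark bins as GRTS or GRH. The table does not spell out either term, and published work on HRDE-1 uses them for loci under germline nuclear RNAi with transcriptional silencing and with heterochromatin. How the marks were given is not stated, so they may not be independent of small RNA data. In the arm 26 bins carried a mark, 19 GRTS and 8 GRH with 1 bin in both, and all 26 were measured. Their counts were 6 higher, 23.1%, and 0 lower, against 21.7% and 9.08% of unmarked bins. The median log2 ratio was 1.43 in GRTS bins (1.02 to 1.78) and 1.76 in GRH bins (0.19 to 3.18), and 1.46 and 1.88 in the marked bins elsewhere. By counts, the GRTS bins were higher in 4 of 19 here, 21.1%, and in 20.5% elsewhere, and the GRH bins in 2 of 8 here and in 88 of 205 elsewhere, 42.9%. The median GRTS bin held 56.0 ppm in N2 and 141 ppm in the coIP. The median over all 6250 unmarked bins, of which only 3204 were measured, was 0.215 and 0.327 ppm. These levels therefore cannot be set against the ratios, which are over measured bins. The authors' deposited table lists a p at or under 0.05 for 22 of the 26 marked bins.

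The marked bins formed 12 runs. The GRTS bin at 15164001, over srz-11 and T09F5.12, held 56.0 and 454 ppm, 8.08-fold higher in the coIP (6.74 to 9.77), and the unmarked bin beside it held 331 and 3508 ppm. The marked run 20465001 to 20468000 held 675 and 4658 ppm, 6.85-fold higher (6.50 to 7.23). The strongest bins of the arm in the coIP thus lay partly inside and partly outside the marks. Of the 20 strongest 3 were marked, against 26 of all 6276 bins of the arm.

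The GRH run 15588001 to 15595000 covers F28F8.7, fbxa-139 and the pseudogenes B0391.10 and F28F8.10, with 275 ppm in N2 and 858 ppm in the coIP, 3.10-fold higher (2.85 to 3.39). The GRTS run 17568001 to 17573000 over C38D9.2 held 390 and 945 ppm, 2.41-fold higher (2.24 to 2.60), and that from 18439001 to 18442000 over ZK262.8 and ZK262.9 held 250 and 711 ppm, 2.82-fold higher (2.58 to 3.09). The run 20296001 to 20299000, with the bin that carries both marks, held 319 and 962 ppm, 3.00-fold higher (2.77 to 3.25). These long marked runs were enriched by less than the 4-fold of the call.

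Single marked bins ranged more widely. The bin at 16926001, over Y102A5C.35 and Y102A5C.36, held 34.4 and 141 ppm, 4.08-fold higher (3.23 to 5.27). The bins at 18447001 in ZK228.1, at 18451001 and at 20305001 stood at 2.71-fold, 2.54-fold and 2.76-fold, and the bin at 18456001 in ZK228.10 held 1.56 ppm in N2 and 5.66 ppm in the coIP. The bin at 16102001 over cth-1, named for cystathionine gamma-lyase, was the exception, with 2.46 ppm in N2 and 0.532 ppm in the coIP. That rests on 4.99 and 2.01 reads, and its ratio of 0.180 has an interval of 0.0170 to 1.09.

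Gene families of the named stretch differed in how often their bins were measured. Of its 4499 bins 48.0% were measured, and the median log2 ratio was 0.95. A bin was given to a family when at least 500 of its bases lie in a member. Chemoreceptors, the receptors by which worms sense odours and tastes, had 386 genes in 661 bins, of which 129 or 19.5% were measured, 23 higher (17.8%) and 6 lower. F-box genes (72 genes, fbxa and fbxb and fbxc) had 96 of 144 bins measured, 66.7%, with 29 higher (30.2%) and 4 lower and a median of 1.57 (1.41 to 1.85). Nuclear hormone receptor genes encode ligand-controlled transcription factors. They had 52 of 127 bins measured, with 23 higher (44.2%) and 2 lower and a median of 1.75 (1.05 to 2.22). The lower end, 1.0469 before rounding, is again the value of the srh-186 bin, which was empty in N2. C-type lectin genes had 25 of 90 bins measured, with 5 higher and 2 lower and a median of 0.46 (−1.08 to 1.48), which turned to −0.28 and −0.16 under the other scalings. The medians of the other 3 families kept their sign under both scalings, at 0.33 and 0.47 for chemoreceptors, 0.80 and 1.00 for F-box genes and 1.02 and 1.18 for nuclear hormone receptors, beside 0.23 and 0.37 for the whole stretch.

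**Figure D4:**
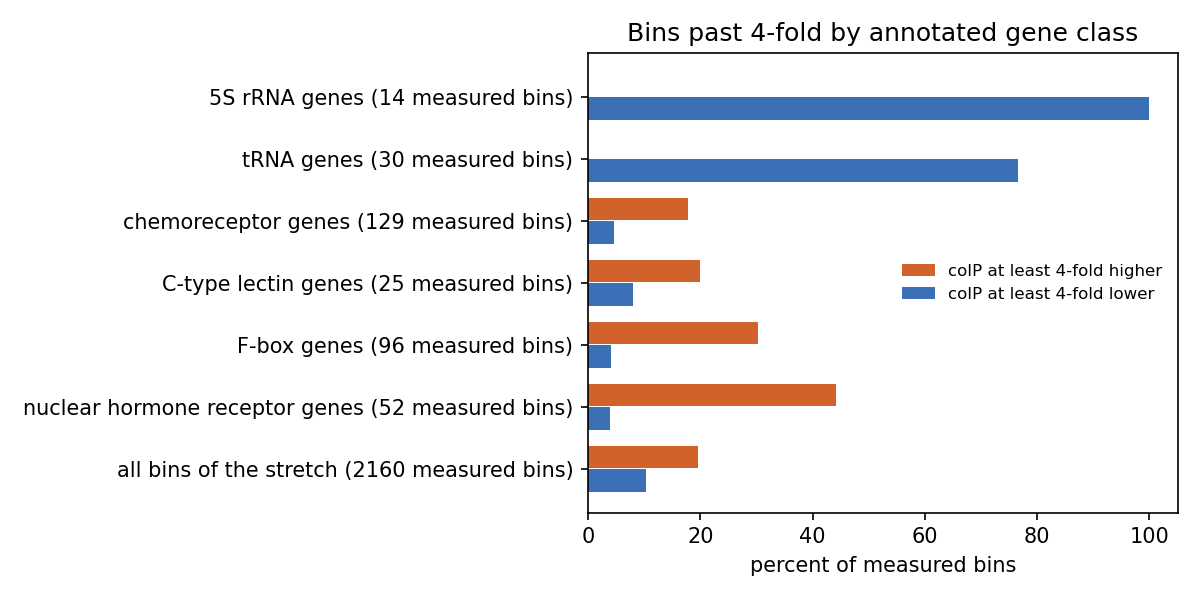
Bars give the percent of measured bins at least 4-fold higher (upper bar) or lower (lower bar) in the HRDE-1 coIP, by annotated class in the stretch with gene names. All 14 bins with 5S rRNA genes and 76.7% of the 30 with transfer RNA genes are lower and none is higher, and among the 4 coding families drawn the shares of higher bins run from 17.8% in chemoreceptor genes to 44.2% in nuclear hormone receptor genes, against 19.7% of all bins.

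From 17 Mb on, positions rest on fewer matched genes, so F-box and nuclear hormone receptor bins were also counted on either side of that point. F-box bins were higher in 8 of 35 measured bins before it, 22.9%, and in 21 of 61 after it, 34.4%. Nuclear hormone receptor bins were higher in 12 of 25, 48.0%, and in 11 of 27, 40.7%. All measured bins were higher in 19.4% before and 19.9% after, and lower in 13.4% and 7.54%.

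Counted by gene over their own bins, 694 of 1518 protein-coding genes and pseudogenes of the stretch were measured, 18.7% of these higher and 13.7% lower. Among F-box genes 50 of 72 were measured, with 13 higher, 26.0%, and 2 lower. The largest coIP level per bin was at the pseudogene fbxa-117, with 97.9 ppm in N2 and 424 ppm in the coIP, 4.30-fold higher (3.74 to 4.98). Next came fbxa-192 with 50.6 and 212 ppm per bin. The gene fbxb-7 had 11.3 and 138 ppm, 12.3-fold higher (9.26 to 16.7), and fbxa-107 had 11.5 and 97.5 ppm, 8.52-fold higher (5.71 to 13.3). The family was not uniform, since fbxa-209 held 90.6 ppm per bin in N2 and 2.50 ppm in the coIP, a ratio of 0.0262 (0.0181 to 0.0368).

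Nuclear hormone receptor genes were at low levels throughout. Of 49 genes 18 were measured, 8 higher and 1 lower, against 18.7% and 13.7% of all measured genes. The highest coIP level was at nhr-84, with 3.16 ppm per bin in N2 and 21.1 ppm in the coIP, 7.02-fold higher (4.38 to 11.4). The gene nhr-164 had 0.0431 N2 reads and 77.0 coIP reads over its 2 bins. The lower gene, nhr-150, held 24.6 and 3.34 ppm per bin, and its bins also hold the transfer RNA genes C06B8.t1 and C06B8.t2. Of the bins of the family, 4 reached 3.51 ppm in N2 and 16 did so in the coIP, so the share of 44.2% rests on bins with few N2 reads.

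Small families gave few values. The skr genes, Skp1-like partners of F-box proteins in ubiquitin ligases, had 3 of 4 members measured, and all 3 were higher: skr-5 at 5.17 and 38.0 ppm per bin, skr-11 at 1.56 and 17.8 ppm, and skr-3 at 1.68 and 12.4 ppm. By reads above the floor they were 7.55-fold, 12.8-fold and 8.25-fold higher, and skr-6 was near the floor in both libraries. The histone genes his-3 and his-4 share a bin at 12.4 and 35.5 ppm, and his-1 and his-2 share another at 6.01 and 23.7 ppm. The collagen gene col-42 was lower, at 13.5 and 2.49 ppm per bin. Of 9 cytochrome P450 genes none was measured over its own bins. The families btb and msp had no annotated gene in the stretch.

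Other genes of the families were also uneven. The C-type lectin gene clec-238 held 2.43 ppm per bin in N2 and 42.0 ppm in the coIP, 18.6-fold higher (9.87 to 38.5), and its family had 15 of 53 genes measured, with 3 higher and 1 lower. Of 386 chemoreceptor genes 73 were measured, 8 higher, 10.96% against 18.7% of all measured genes, and 4 lower. Levels over these 73 were low, with medians of 0.52 ppm per bin in N2 and 0.80 ppm in the coIP, which limits 4-fold calls. The highest was srz-11, described above, and the pseudogene srw-45 held 5.66 and 34.6 ppm per bin over 8 bins, 6.26-fold higher (5.11 to 7.82). The pseudogene srz-26, at 20.02 and 1.13 ppm per bin, shares a bin with the transfer RNA gene F31E9.t1.

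Along the arm the ratio was uneven. In tiles of 500 kb, cut at round positions, the coIP exceeded N2 in 11 of 13 tiles, and in 7 of 13 with the median-of-ratios scaling. The first, shorter tile, 14644001 to 15000000, had 12.8% of measured bins higher and 18.97% lower, with a summed ratio of 0.788 (0.749 to 0.829). The tile with the block, 17000001 to 17500000, had a summed ratio of 0.229 although 23.4% of its measured bins were higher. The 18 bins of the block held 56316 of the 62518 ppm of N2 signal in that tile.

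Toward the end of the arm the summed ratios were high. The tile 20000001 to 20500000 held 3285 ppm in N2 and 12564 ppm in the coIP, 3.89-fold higher (3.80 to 3.99), and 2.38-fold without its run 20465001 to 20470000. The last tile, 20500001 to 20920000, held 1103 and 5251 ppm, 5.05-fold higher (4.84 to 5.28), and 31.3% of its measured bins were higher against 2.38% lower. The densest window of 100 kb was 20400001 to 20500000, with 40 of 76 measured bins higher and 0 lower. In the last 100 kb before the end of the table, 20 of 67 measured bins were higher and 0 lower, at 92.3 and 192 ppm in all. Genes could not be named in this end.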

How the data were processed

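Small RNA of 2 libraries, 1 per group, was deposited by the authors as a coverage signal per 1 kb bin, with a p-value per bin whose method is not stated and with the authors' marks GRTS and GRH. Bowtie 0.12.7 was used, per the submitters' processing notes. The sources used here do not give the genome build, the read filters, the normalising total or the treatment of reads with several sites.

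From the deposited signal, ppm, shares, log2 ratios (pseudocount 0.121 ppm), 4-fold calls, runs and exact (Clopper-Pearson) intervals were computed with Python 3.11.15, numpy 2.4.6, pandas 2.3.3 and scipy 1.17.1. The value of 1 read above the floor was inferred as 0.232 in N2 and 0.169 in the coIP, as 4305520 and 5919261 normalising reads would give. A whole number of reads, to within 0.0055, was found for 53.9% of N2 and 29.9% of coIP values above the floor, so no count test was run. On simulated bins with a mean of 0.6 reads this estimate returned the true step of 0.2, and with a mean of 3 reads it returned 0.40, so it is right only where single reads are common.

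Positions were compared with the WBcel235 annotation (Ensembl and RefSeq) at shifts of up to 20 kb. The rule asked for a match in the arm, and it held for only a part. Up to 19143000, 62 of 78 structural RNA genes lay in bins of at least 3.51 ppm in N2 without a shift, against 3 to 39 at other shifts, and outside the array 36 of 52 against 1 to 15. From 17 Mb on the latter were 8 of 16 against 0 to 5. Beyond 19143000 they were 4 of 9 against 0 to 4. The arm was therefore divided at the bin of the transfer RNA gene Y39B6A.t10, the last with a strong match, after single genes were seen, and no gene is named beyond it. Exons of coding genes gave weak and uneven help in a comparison that was not planned: over the named stretch the correlation with log2 N2 signal was highest without a shift but was only 0.033 over its bins. Divided at 17500001 both pieces peaked without a shift, and divided at 17000001 the second piece did not (−0.026 without a shift, −0.004 at its best, −20 kb).

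Named regions followed a written rule: the 10 higher runs with most coIP signal, the 5 of at least 2 bins with the largest lower bound, the 5 lower runs with most N2 signal, the 5 strongest bins within 2-fold, every marked run, the block and the last 100 kb. The members, lists and rules were chosen with earlier results of these data known. The stretch after the block, the values per gene in families, the gene shares of the whole stretch, the reading on both sides of 17 Mb and the tile without its strongest run were added after values were seen. No sequence is printed, since no genome of this build was used here.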

Additional observations from a re-analysis of the deposited data

How the results depend on the processing

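With the median-of-ratios scaling 337 bins were higher and 475 lower and the median was 0.31. With sums without the 10 highest bins of either library these were 425, 551 and 0.45. A pseudocount 10 times smaller gave 463 lower bins and a median of 1.16, and one 10 times larger 323, 147 and 0.40. With no minimum the median turned to −0.15, since empty bins then counted, and 10 times the minimum gave 367, 142 and 1.59. Subtracting the floor gave 1179, 454 and 1.29. Bins with whole N2 reads alone gave 445 and 158; no GRH bin was among them. At 2-fold 1636 bins were higher and 630 lower, and at 8-fold 272 and 162. The last 20% of the bins had 162 lower bins. The GRTS median was 0.62 with median of ratios and 0.75 with the sums without the 10 highest bins, and the GRH median 0.95 and 1.08. The interval of the GRH median spans all 8 bins, so it says little on stability.

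The share of the libraries in the arm was 7.61% of N2 and 5.33% of the coIP for the last 20% of the bins, 14.4% and 5.99% without the 10 highest bins of either library, 2.96% and 6.28% without the block, and 8.49% of N2 as deposited with the floor. Leaving out the bins of structural RNA genes, an alternative added after the data were seen, gave 2.22% and 6.16%. The block was 45.7-fold lower with median of ratios and 42.2-fold lower with the sums without the 10 highest bins. Of 37 named regions 31 moved out of their counting interval with median of ratios, a division by 1.76, and 3 passed to the other side of 1. No paired analysis was possible because there is a single library per group. The N2 depth limits ratios of weak bins.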
